A study of Homo sapiens with 24 samples.

Results

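The 7 matrix metalloproteinase genes MMP1, MMP2, MMP3, MMP9, MMP10, MMP14 and MMP15 and the 3 genes TIMP1, TIMP2 and TIMP3 for their tissue inhibitors were followed through 24 RNA sequencing libraries of A2780 and ES2, a pair of established lines from human ovarian cancers. The members were given as a list of gene symbols, and all 10 were among the 28907 symbols of the deposited table. The level of a gene is its TPM (a length-adjusted share of the RNA of a library) summed over its distinct transcripts. Each line had 4 groups of 3 libraries: cells given an siRNA against VRK1 (siVRK1), cells given a control siRNA (siCtrl), cells given luteolin and cells given its solvent DMSO. VRK1 is a nuclear serine/threonine kinase, and luteolin is a plant flavone. No source used here states the luteolin dose or the treatment times. Whether the 3 libraries of each group were separate cultures is not labelled, and p-values therefore reflect only the spread between these samples, which may be technical.

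Matrix metalloproteinases are zinc-dependent proteases that are made as inactive proenzymes and cut collagens and other proteins of the extracellular matrix once the propeptide is removed. TIMPs block the active site of these enzymes in a complex of equal parts, and TIMP3 stays bound to the matrix and also inhibits several ADAM and ADAMTS proteases. MMP1 is the interstitial collagenase, MMP2 and MMP9 are the gelatinases, MMP3 and MMP10 are stromelysins, and MMP14 and MMP15 are anchored in the cell membrane. MMP14 activates proMMP2 at the cell surface with TIMP2 as the adaptor, so the level of TIMP2 has a part in activation as well as in inhibition. In tumours these proteases are known for matrix invasion, and transcription of MMP1, MMP3 and MMP10 responds to AP-1 factors.

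The genes of MMP10, MMP1 and MMP3 lie next to each other on the minus strand of chromosome 11, at 102770503 to 102780628, 102789920 to 102798160 and 102835801 to 102843803 (GRCh38, GENCODE 29). MMP10 and MMP1 are 9291 bases apart, and MMP1 and MMP3 are 37640 bases apart. The transcripts of MMP10 and MMP3 share 125 words of 31 bases, which is 7.12% of those of MMP10 and 6.25% of those of MMP3, so reads from such stretches could be assigned to either gene. WTAPP1, on the plus strand, overlaps all 3 genes and shares 94 words with MMP1. WTAPP1 averaged 0.124 to 0.479 TPM in the ES2 groups and 2.91 to 7.20 TPM in the A2780 groups, and the sources used here give no strand setting. Among the other members, TIMP2 shares 9.87% of its words with other genes, most of them with AC022966.1. MMP9 shares 13.8%, with SLC12A5-AS1 sharing most, and MMP2 2.97%, with AC007336.3 sharing most. MMP14, MMP15, TIMP1 and TIMP3 share none.

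MMP10 is the member whose control level differed most in favour of A2780, so the motifs before its start are shown. Both windows are from RefSeq promoters (GRCh38.p14, minus strand), with the motif in capitals.
TGANTCA match, chr11:102780677-102780706: aaacacatgcaTGAATCAtactgttggtga
TATAAA match, chr11:102780641-102780670: cattgtctctgTATAAAagaaaggccacta
The TGAATCA begins 67 bases before the annotated start and fits the AP-1-like pattern TGANTCA, which is its own reverse complement apart from N. Within 250 bases before the start, 6.57% of 35116 promoters held TGANTCA. The canonical AP-1 site TGACTCA, searched on both strands, was in 4.20%. TATAAA, searched on the gene's strand in the last 50 of those bases, was in 2.63%. A promoter entry was matched for 5 of the 10 members (MMP10, MMP14, MMP15, TIMP1 and TIMP3), of which 1 held TGANTCA and 0 held the canonical site on either strand. These matches describe letters in a window and say nothing of binding.

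VRK1 had 2.92 to 4.20 TPM in the ES2 siVRK1 libraries, against 62.2 to 66.2 TPM in ES2 siCtrl, and 7.98 to 11.3 TPM in A2780 siVRK1, against 53.6 to 55.2 TPM in A2780 siCtrl. The later siVRK1 libraries of a line carry the treatment labels siVRK2 and siVRK3, and the cell line label counts up within a line, so the titles were used for grouping. For ES2 siVRK1, 2 columns carry an identical name, and these libraries are called a and b beside library 3. Of 10 epithelial and ovarian carcinoma markers, 4 to 5 reached a group mean of 1 TPM in ES2, with summed levels of 636 to 993 TPM, and 2 to 3 did so in A2780, with sums of 5.50 to 12.1 TPM. The markers CDH1, MUC16 and KRT19 were below 1 TPM in every group of both lines. A level of 1 TPM was reached by 11792 to 12862 genes per library.

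The lines expressed different proteases. In ES2, MMP1 supplied 93.9% to 97.3% of the TPM of the 7 MMP genes, whereas in A2780 MMP10 supplied 89.3% to 94.3%. ES2 also had high MMP14 and clear MMP2, and A2780 had MMP15 and, in its control groups, more MMP3. TIMP1 was the main inhibitor in both, with 80.4% to 90.3% of the TIMP TPM in ES2 and 93.9% to 97.7% in A2780. The libraries are of bulk RNA, in which fewer cells with a transcript and less RNA per cell cannot be told apart.

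Control levels were compared as the mean of the siCtrl and DMSO groups of ES2 minus that of A2780, with limma on log2(TPM + 1), p-values adjusted over all 14328 genes tested, and a call at an adjusted p under 0.05. Of the members, 9 passed the filter of 1 TPM in 3 libraries and 9 were called, 5 higher and 4 lower in ES2. Across all genes tested 83.7% were called (34.3% higher and 49.4% lower), so a call here is common. Another scaling of the libraries moved the median difference of all genes, which was −0.17, to −0.03, and the differences that follow are relative to that median. MMP1 averaged 7004 ± 133 TPM in ES2 siCtrl and 4843 ± 112 TPM in ES2 DMSO, against 11.3 ± 0.961 TPM in A2780 siCtrl and 2.94 ± 0.210 TPM in A2780 DMSO (SD, n = 3 each). The difference was 9.88 ± 0.06 on the log2 scale (SE, adjusted p = 4.27e-30), and MMP1 stood at place 8 of all genes in ES2 siCtrl, ordered by mean level. MMP10 was the mirror image, with 0.0121 ± 0.0209 TPM in ES2 siCtrl and 0.126 ± 0.0771 TPM in ES2 DMSO, against 553 ± 4.33 TPM in A2780 siCtrl and 525 ± 28.8 TPM in A2780 DMSO. Its difference was −8.82 ± 0.05 (adjusted p = 2.05e-30). The pseudocount of 1 makes differences of genes near 0 TPM too small.

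The other differences between the control levels were 6.07 ± 0.14 for MMP14 (adjusted p = 1.41e-19), 5.26 ± 0.08 for MMP2 (2.27e-22), −3.00 ± 0.06 for MMP15 (2.05e-21) and −1.97 ± 0.08 for MMP3 (2.25e-16). The inhibitors were closer, at 1.95 ± 0.05 for TIMP2 (1.26e-17), 0.97 ± 0.04 for TIMP3 (5.14e-14) and −0.44 ± 0.03 for TIMP1 (2.19e-13). MMP9 did not pass the filter in any comparison. It was listed at 0 TPM in 11 of the 12 ES2 libraries and had 0.0912 to 0.536 TPM in A2780, so gelatinase B is at the lower edge of what these libraries measure.

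Ordered over the 8 groups by mean level, MMP1 ran ES2 siCtrl, ES2 DMSO, ES2 luteolin, ES2 siVRK1 and then the A2780 groups, and the libraries of neighbouring groups overlapped only for ES2 luteolin and ES2 siVRK1. MMP3 was the protease whose order mixed the lines. It averaged 42.6 TPM in A2780 siCtrl, followed by ES2 siVRK1, A2780 siVRK1 (29.1 TPM), A2780 DMSO (23.3 TPM), A2780 luteolin (16.9 TPM), ES2 luteolin (16.6 TPM), ES2 DMSO (7.13 TPM) and ES2 siCtrl (5.73 TPM). The libraries of ES2 siVRK1 and A2780 siVRK1 overlapped, as did those of A2780 luteolin and ES2 luteolin, and the other neighbours were apart. TIMP1 spanned a narrow range, with its lowest group mean in ES2 siCtrl (273 TPM) and its highest in A2780 siCtrl (618 TPM), and 4 of the 7 neighbouring pairs overlapped. TIMP3 was lowest in ES2 luteolin (6.17 TPM) and highest in ES2 siVRK1 (25.2 TPM), so ES2 held both ends of its order.

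**Figure D1:**
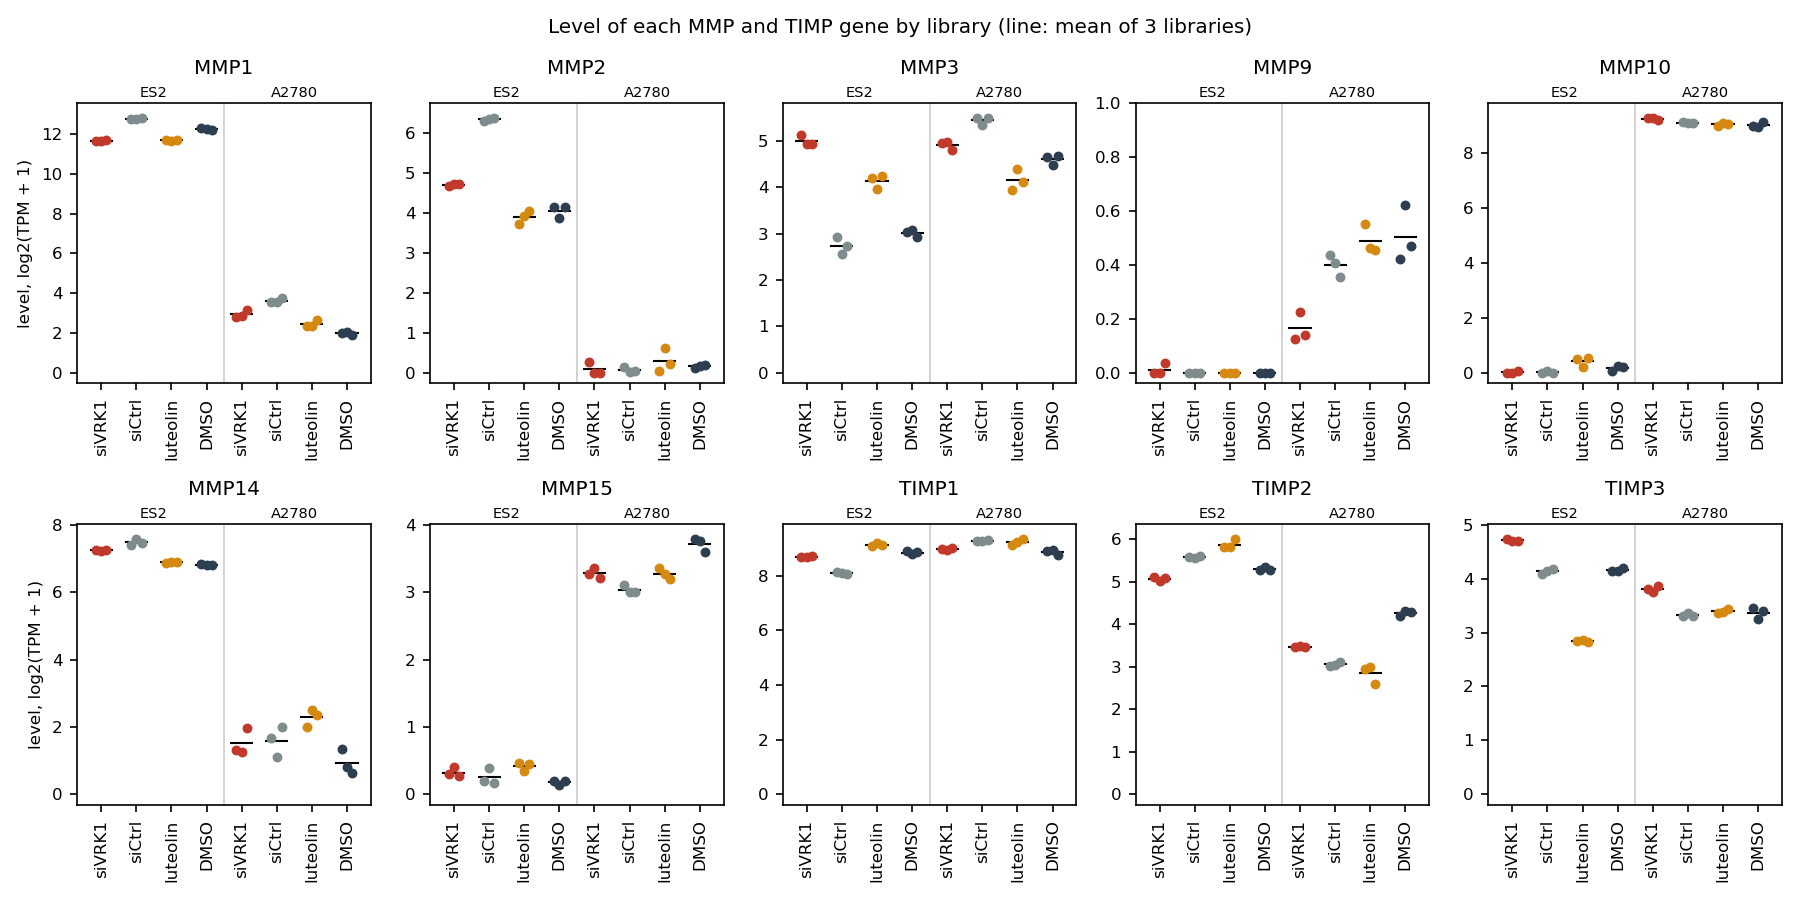
Level of each gene on the log2(TPM + 1) scale in the 24 libraries, by group within ES2 and A2780; points are libraries and lines are means of 3. MMP1, MMP2 and MMP14 are higher in every ES2 group than in any A2780 group, and MMP10 and MMP15 are lower. TIMP1 lies between 266 and 638 TPM in every library.

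With VRK1 siRNA, ES2 cells had lower MMP1, MMP2 and MMP14 and higher MMP3, while TIMP1 and TIMP3 were higher and TIMP2 lower. All 7 members that passed the filter were called, 3 higher and 4 lower, where 54.8% of the 12507 genes tested were called (26.8% higher and 28% lower). The collagenase MMP1 had 3231, 3267 and 3240.4 TPM in ES2 siVRK1 libraries a, b and 3, against 6925, 6930.4 and 7157 TPM in the ES2 siCtrl libraries. The groups lay far apart, and the log2 fold change was −1.11 ± 0.03 (adjusted p = 1.2e-11). The gelatinase MMP2 had 25.8, 25.4 and 24.6 TPM in ES2 siVRK1, against 78.5, 80.5 and 82.7 TPM in ES2 siCtrl. It fell by 1.63 ± 0.09 on the log2 scale (adjusted p = 1.36e-08). Its membrane-bound activator MMP14 had 149, 153 and 152 TPM, against 169.7, 189 and 176 TPM, which was a small step beside that of MMP2 but without overlap (−0.23 ± 0.04, adjusted p = 0.000306). Of this, the protein-coding transcript of 3732 bases averaged 110 TPM, against 122 TPM. A transcript of 560 bases, listed as retaining an intron, averaged 38.3 TPM, against 51.0 TPM.

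The stromelysin MMP3 went the other way in ES2. It had 29.6, 29.6 and 33.7 TPM in siVRK1 libraries, against 6.63, 4.90 and 5.67 TPM in siCtrl libraries, a log2 fold change of 2.25 ± 0.11 (adjusted p = 4.37e-09). Every siVRK1 library was above every siCtrl library. Its neighbour MMP10 did not share this rise, with 0 to 0.0340 TPM in ES2 siVRK1 and 0 to 0.0363 TPM in ES2 siCtrl, and was not tested in ES2.

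Among the inhibitors in ES2, TIMP1 had 409, 417 and 405 TPM with siVRK1, against 277, 275 and 266 TPM with siCtrl, and rose by 0.59 ± 0.04 (adjusted p = 3.48e-08). TIMP3 had 25.1, 25.1 and 25.5 TPM, against 15.9, 16.6 and 17.2 TPM (0.58 ± 0.06, adjusted p = 2.53e-06). TIMP2, the adaptor for proMMP2 activation, had 31.6, 32.8 and 33.5 TPM, against 46.7, 46.5 and 47.8 TPM (−0.51 ± 0.05, adjusted p = 5.47e-06). MMP2, MMP14 and TIMP2, which act together at the cell surface, were thus all lower with siVRK1 than with siCtrl. In ES2 DMSO they averaged 15.7, 112 and 38.4 TPM. The siVRK1 levels of MMP2 and MMP14 were above these DMSO levels, and that of TIMP2 was below. Libraries of siVRK1 and siCtrl were apart for every member tested in ES2, not for these genes alone. How many of all genes were apart in this way was not counted. Beside the members, 6 leukocyte markers summed to 71.4 to 79.0 TPM in ES2 siVRK1 and 36.0 to 42.2 TPM in ES2 siCtrl. Nearly all of this was CD68, which averaged 75.4 TPM and 36.7 TPM. LYZ went the other way, at 0.487 TPM and 1.31 TPM, and PTPRC, CD3E, CD14 and ITGAM did not reach 1 TPM. The 10 epithelial and ovarian markers summed to 636 to 675 TPM in siVRK1 and 962 to 986 TPM in siCtrl, and the 6 fibroblast markers to 54.3 to 66.9 TPM and 85.9 to 102 TPM, with LUM, DCN and PDGFRB below 1 TPM. The part of these lists in the results was not tested.

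In A2780 the siVRK1 fold changes of the members tested in both lines were smaller in size than in ES2. The difference between the lines, given further on, was not called for TIMP3 or MMP14. Of 8 members tested, 4 were called higher, 3 lower and 1 was not called, where 40.9% of 13012 genes were called (13.8% higher and 27% lower). With median-of-ratios scaling 49.5% of all calls were higher, in place of 33.8%, and the members' counts were again 4 and 3. MMP1, low in this line, had 5.96, 6.31 and 7.90 TPM in siVRK1 libraries, against 10.6, 10.8 and 12.4 TPM in siCtrl libraries (−0.67 ± 0.12, adjusted p = 0.000828). MMP3 had 29.8, 30.5 and 26.95 TPM, against 44.1, 39.8 and 43.8 TPM (−0.54 ± 0.11, adjusted p = 0.00149). Both fell without overlap between the groups. The 10 epithelial and ovarian markers summed to 7.08 to 8.69 TPM in siVRK1 and 10.3 to 12.1 TPM in siCtrl, where 2 and 3 of them reached 1 TPM, and the part of this list in the results was not tested.

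MMP10, the main A2780 protease, had 624, 617 and 585 TPM in siVRK1, against 557, 548 and 555 TPM in siCtrl. Its log2 fold change was 0.14 ± 0.04 (adjusted p = 0.0230), and the adjusted p was 0.0517 to 0.0754 without siVRK1 library 1 or 2 or without siCtrl library 1, 2 or 3. MMP15 had 8.71, 9.32 and 8.28 TPM, against 7.61, 7.07 and 7.01 TPM (0.25 ± 0.09, adjusted p = 0.0370). That call was lost without siVRK1 library 1 or 2 or siCtrl library 2 or 3, with adjusted p of 0.0665 to 0.132, and at 0.0524 when the 2 groups were fitted alone. MMP14 had 1.49, 1.37 and 2.94 TPM, against 2.15, 1.14 and 2.95 TPM, and the groups overlapped (−0.07, 95% interval −0.64 to 0.50, adjusted p = 0.864). MMP2 was at or below 0.538 TPM in every A2780 library and was not tested.

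TIMP1 in A2780 had 501, 490 and 512 TPM with siVRK1, against 615, 611 and 629 TPM with siCtrl, and fell by 0.30 ± 0.05 (adjusted p = 0.000625). TIMP2 had 10.1, 10.2 and 9.98 TPM, against 7.13, 7.20 and 7.64 TPM (0.41 ± 0.10, adjusted p = 0.00585). TIMP3 had 13.0, 12.5 and 13.6 TPM, against 8.90, 9.23 and 8.88 TPM (0.49 ± 0.08, adjusted p = 0.000340). Of the 3 inhibitors, TIMP3 was the one called in the same direction in both lines.

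The difference between the siVRK1 effects, ES2 minus A2780, was tested in a fit of all 24 libraries and called 33.9% of 14328 genes (20.7% higher and 13.2% lower). The calls were 61.0% higher, and 44.7% with median-of-ratios scaling. Of 9 members tested, 2 were called higher and 3 lower. MMP3 differed by 2.79 ± 0.15 (adjusted p = 5.51e-11), since it was higher with siVRK1 in ES2 and lower in A2780. TIMP1 differed by 0.89 ± 0.06 (2.03e-09) and TIMP2 by −0.93 ± 0.11 (1.43e-06), with opposite directions in the lines for each. MMP1 was lower with siVRK1 in both and its difference was −0.43 ± 0.11 (0.00504). MMP2 differed by −1.65 ± 0.17 (2.24e-07), which rests on ES2 because A2780 held almost no MMP2. TIMP3 differed by 0.09 (95% interval −0.08 to 0.25, adjusted p = 0.416), at −0.0036 with median-of-ratios scaling. MMP10 was at −0.14 (95% interval −0.35 to 0.07, adjusted p = 0.307, and called at −0.25 with that scaling, 0.0402), MMP14 at −0.16 (−0.75 to 0.42, 0.699) and MMP15 at −0.18 (−0.42 to 0.07, 0.275). MMP10 and MMP15 were below the filter in ES2, so their values rest on A2780.

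**Figure D2:**
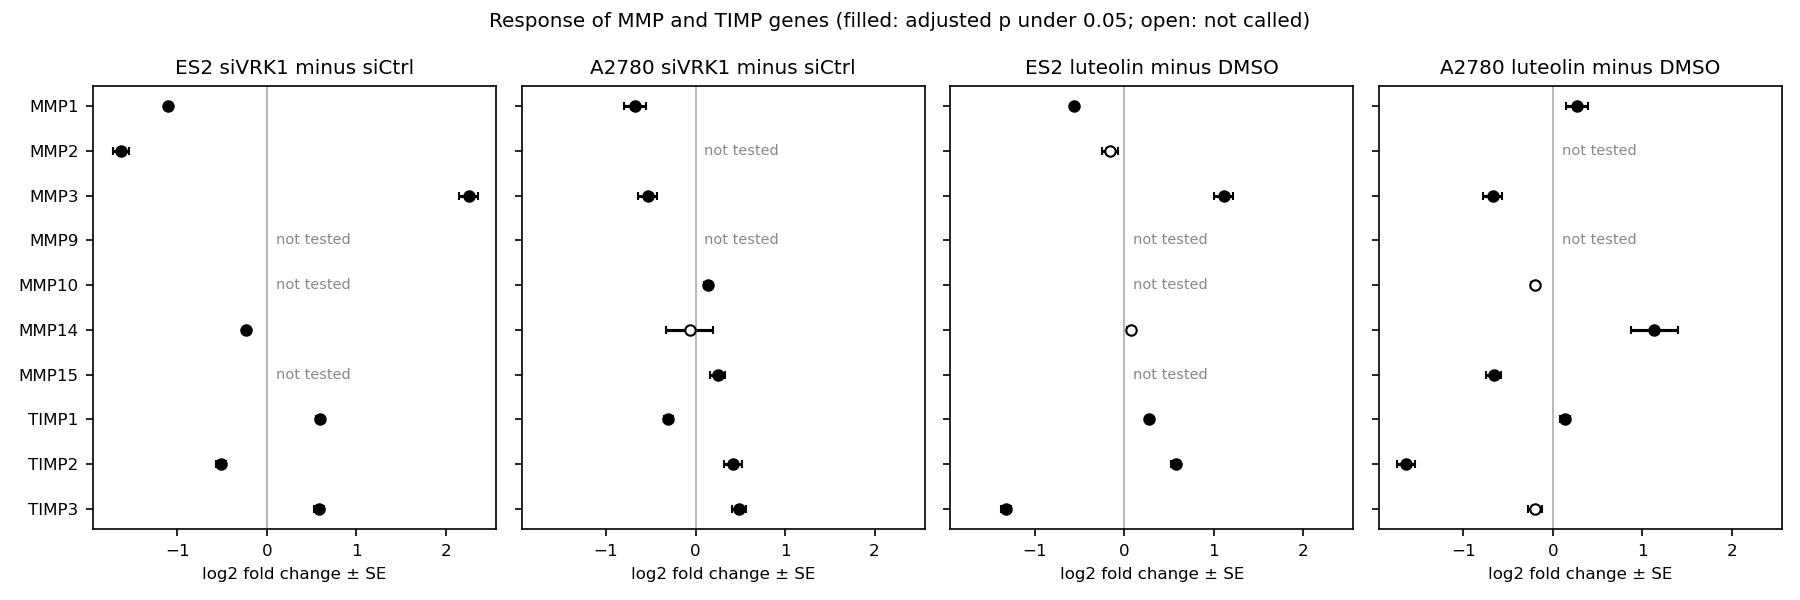
Log2 fold changes with standard errors of the 10 genes in the 4 treatment comparisons, with A2780 luteolin values relative to the median of all genes. Filled points have an adjusted p under 0.05, open points do not, and genes below the filter are marked as not tested; MMP3 is at 2.25 and 1.11 in ES2 and at −0.54 and −0.67 in A2780.

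With luteolin, ES2 cells had lower MMP1 and TIMP3 and higher MMP3, TIMP1 and TIMP2 than with DMSO. Of 7 members tested, 3 were called higher, 2 lower and 2 were not called, where 48.4% of 12507 genes were called (22.6% higher and 25.8% lower). MMP1 had 3301, 3217 and 3337 TPM with luteolin, against 4968, 4811 and 4751 TPM with DMSO (−0.56 ± 0.03, adjusted p = 7.04e-09). MMP3 had 17.4, 14.6 and 17.8 TPM, against 7.25, 7.50 and 6.64 TPM (1.11 ± 0.11, adjusted p = 3.54e-06). Neither gene's groups overlapped. MMP2 had 12.3, 14.1 and 15.5 TPM with luteolin and 16.9, 13.6 and 16.7 TPM with DMSO, which overlap (−0.16, 95% interval −0.35 to 0.03, adjusted p = 0.154), and was called lower at −0.26 (adjusted p = 0.0230) without DMSO library 2. MMP14 had 117, 119 and 119 TPM, against 114, 111 and 112 TPM (0.07, 95% interval −0.01 to 0.16, adjusted p = 0.137), and was called at 0.13 (adjusted p = 0.0401) after quantile normalization.

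The matrix-bound inhibitor TIMP3 had 6.16, 6.28 and 6.08 TPM in ES2 with luteolin, against 16.6, 16.8 and 17.4 TPM with DMSO. This was its lowest level of the 8 groups, and it fell by 1.32 ± 0.06 (adjusted p = 3.97e-09). TIMP1 had 538, 576 and 548 TPM, against 473, 440.5 and 459.6 TPM (0.28 ± 0.04, adjusted p = 4.22e-05). TIMP2 had 55.1, 55.3 and 62.9 TPM, against 37.7, 39.4 and 38.0 TPM (0.58 ± 0.05, adjusted p = 3.36e-06). The groups were apart for each of the 3 inhibitors, and the share of all genes with groups apart was not counted. Beside these, the 6 fibroblast markers summed to 16.8 to 21.7 TPM with luteolin and 113 to 134 TPM with DMSO, of which COL1A1 averaged 13.0 TPM and 115 TPM, with LUM, DCN and PDGFRB below 1 TPM in both. The 4 endothelial markers summed to 9.79 to 10.8 TPM, against 36.2 to 40.0 TPM, with VWF and KDR below 1 TPM in both. Most of this was CDH5, which averaged 8.86 TPM, against 37.8 TPM, while PECAM1 was higher at 1.12 TPM, against 0.377 TPM. The 10 epithelial and ovarian markers summed to 705 to 775 TPM, against 952 to 993 TPM. Mitochondrial mRNA held 7.23% to 8.69% of the TPM with luteolin, against 4.03% to 5.15% with DMSO. The part of these lists and of this share in the results was not tested.

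In A2780 with luteolin, the median log2 fold change of all genes was 0.22, against −0.01 with median-of-ratios scaling, so fold changes are given relative to that median, while adjusted p-values test the difference as deposited. Of 8 members tested, 3 were called higher and 3 lower, or 1 higher and 5 lower with median-of-ratios scaling, where 65.5% of 13012 genes were called (45.6% higher and 19.9% lower). The share of calls that were higher was 69.7%, and 46.5% with that scaling. TIMP2 had 6.73, 6.98 and 5.03 TPM with luteolin, against 17.4, 18.8 and 18.6 TPM with DMSO (−1.64 ± 0.10, adjusted p = 1.19e-07). MMP14 had 3.03, 4.62 and 4.06 TPM, against 1.52, 0.756 and 0.555 TPM (1.13 ± 0.26, adjusted p = 0.000608). The adaptor TIMP2 was thus lower and the membrane protease MMP14 higher with luteolin than with DMSO, each without overlap. How many of all genes had groups apart was not counted. TIMP2 averaged 6.25 TPM with luteolin, 18.3 TPM with DMSO and 7.33 TPM in A2780 siCtrl. MMP14, low in this line, averaged 3.90, 0.945 and 2.08 TPM in these groups. The protein-coding MMP14 transcript of 3732 bases averaged 1.39 TPM with luteolin, against 0.277 TPM with DMSO. This was 35.6% and 29.3% of the MMP14 TPM. A transcript of 560 bases, listed as retaining an intron, held 40.7% and 61.4%. Beside the members, mitochondrial mRNA held 9.39% to 12.1% of the TPM with luteolin, against 5.96% to 7.97% with DMSO. The 6 fibroblast markers summed to 16.3 to 16.7 TPM, against 17.3 to 20.8 TPM, with FAP and LUM below 1 TPM in both groups. The 6 leukocyte markers summed to 3.40 to 7.23 TPM, against 2.70 to 3.12 TPM, with PTPRC, CD3E, ITGAM and LYZ below 1 TPM in both groups. Their part in the results was not tested.

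MMP3 in A2780 had 14.3, 20.1 and 16.2 TPM with luteolin, against 24.1, 21.3 and 24.6 TPM with DMSO (−0.67 ± 0.11, adjusted p = 0.00217). MMP15 had 9.23, 8.63 and 8.16 TPM, against 12.8, 12.6 and 11.1 TPM (−0.66 ± 0.09, adjusted p = 0.000617). Both were lower in every luteolin library. MMP1 had 4.17, 4.11 and 5.31 TPM, against 3.05, 3.06 and 2.69 TPM (0.27 ± 0.12, adjusted p = 0.00362), and quantile normalization gave an adjusted p of 0.871 and median-of-ratios scaling 0.0859. TIMP1 had 559.7, 594 and 638 TPM, against 474, 491 and 434 TPM (0.14 ± 0.05, adjusted p = 6.73e-05), and its adjusted p was 0.298 with median-of-ratios scaling.

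Neither MMP10 nor TIMP3 was called with luteolin in A2780 as deposited. MMP10 had 514, 545 and 535 TPM, against 515, 502 and 557 TPM (−0.20 relative to the median, adjusted p = 0.712 as deposited), and was called at 0.23 after quantile normalization but at −0.24 after median-of-ratios scaling. TIMP3 had 9.24, 9.36 and 9.86 TPM, against 9.94, 8.54 and 9.52 TPM (−0.19 relative to the median, adjusted p = 0.802 as deposited), and was called at −0.37 and −0.21 after them. The libraries of both genes overlapped, and the direction of MMP10 depends on the scaling.

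The difference between the luteolin effects, ES2 minus A2780, called 3 of 9 members tested higher and 3 lower, where 50.5% of 14328 genes were called (14.7% higher and 35.8% lower). The calls were 29.1% higher, and 50.8% with median-of-ratios scaling, and the median of all genes was −0.20, against −0.02 with that scaling. Relative to the median, TIMP2 differed by 2.19 ± 0.11 (adjusted p = 1.98e-11), MMP3 by 1.76 ± 0.15 (9.68e-08) and TIMP3 by −1.15 ± 0.08 (6.41e-11). TIMP2 and MMP3 moved in opposite directions in the lines, and the TIMP3 fall was in ES2. MMP1 differed by −0.85 ± 0.11 (2.95e-07) and MMP14 by −1.08 ± 0.28 (0.000868). MMP15 differed by 0.88 ± 0.12 (8.18e-05), which rests on A2780 because MMP15 had 0.102 to 0.381 TPM in ES2. MMP10 (0.42, adjusted p = 0.0606 as deposited), TIMP1 (0.11, 0.311) and MMP2 (−0.10, 0.149) were not called. MMP10 had 0.156 to 0.464 TPM in ES2 luteolin and 0.0374 to 0.175 TPM in ES2 DMSO, below the filter in that line, so its difference sets A2780 against a level near 0. As deposited, the values were 0.23 for MMP10, −0.08 for TIMP1 and −0.30 for MMP2. MMP10 was called at 0.48 (adjusted p = 0.000230) with median-of-ratios scaling, and, as deposited, at 0.33 (0.00174) without ES2 luteolin library 2 and at 0.26 (0.0485) without ES2 DMSO library 2, but stood at −0.13 after quantile normalization. TIMP1 was called at −0.24 (0.00944) after quantile normalization and was at 0.13 with median-of-ratios scaling, and MMP2 was called at −0.42 (0.0380) without A2780 luteolin library 1.

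The control groups differed as well, which sets where each treatment started. The siCtrl and DMSO cells differ in the siRNA treatment and the solvent, and these cannot be told apart from other handling. In ES2, siCtrl minus DMSO called 4 of 7 members tested higher and 2 lower, where 56.2% of genes were called (34.7% higher and 21.5% lower). The calls were 61.7% higher, and 51.2% with quantile normalization. MMP2 averaged 80.6 ± 2.14 TPM in ES2 siCtrl and 15.7 ± 1.85 TPM in ES2 DMSO (2.29 ± 0.09, adjusted p = 1.07e-09). TIMP1 averaged 273 ± 5.59 TPM in siCtrl and 457.5 ± 16.1 TPM in DMSO (−0.74 ± 0.04, adjusted p = 6.39e-09). The siVRK1 levels of MMP2, MMP14 and TIMP1 in ES2 lie between those of the control groups, whereas the siVRK1 levels of MMP1 and TIMP2 lie below both and those of MMP3 and TIMP3 above both. Of the mean luteolin levels in ES2, that of MMP14 lies between those of the control groups. Those of MMP1, MMP2 and TIMP3 lie below both, and those of MMP3, TIMP1 and TIMP2 above both. The other values of siCtrl minus DMSO were 0.66 ± 0.04 for MMP14 (4.35e-08), 0.53 ± 0.03 for MMP1 (6.66e-09), 0.29 ± 0.05 for TIMP2 (0.000663), −0.28 ± 0.11 for MMP3 (0.0395) and −0.03 ± 0.06 for TIMP3 (0.721). The MMP3 call was lost in 7 alternatives, 4 of them without ES2 DMSO library 1 or 2 or siCtrl library 2 or 3, with adjusted p of 0.0688 to 0.162.

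In A2780, siCtrl minus DMSO called 4 of 8 members higher and 2 lower, or 2 higher and 4 lower with median-of-ratios scaling, where 58.1% of genes were called (47.2% higher and 10.9% lower). The calls were 81.3% higher, and 46.0% with that scaling, and the median of all genes was 0.24, against 0.01. Relative to the median, MMP1 was higher in siCtrl by 1.40 ± 0.12 (11.3 ± 0.961 TPM, against 2.94 ± 0.210 TPM in DMSO, adjusted p = 1.12e-06) and MMP3 by 0.60 ± 0.11 (4.13e-05). TIMP2 was at −1.46 ± 0.10 on that scale (7.33 ± 0.277 TPM in siCtrl, against 18.3 ± 0.754 TPM in DMSO, adjusted p = 2.40e-06), and the value for MMP15 was −0.92 ± 0.09 (4.81e-05). The mean siVRK1 levels of MMP1, MMP3, MMP14, MMP15, TIMP1 and TIMP2 in A2780 lie between those of the control groups, and those of MMP10 and TIMP3 above both. Mean luteolin levels in A2780 lie between those of the control groups for MMP1, MMP10, MMP15 and TIMP1. They lie below both for MMP3 and TIMP2 and above both for MMP14 and TIMP3. In siCtrl minus DMSO, TIMP1 was at 0.16 (5.05e-05, and 0.162 with median-of-ratios scaling). MMP14 was at 0.41 (0.0496) and was not called in 10 of the alternatives, 4 of them without siCtrl library 1 or 3 or DMSO library 2 or 3, with adjusted p of 0.0559 to 0.274. MMP10 was at −0.17 (0.147 as deposited, 0.000526 with median-of-ratios scaling, and 0.0181 as deposited but with a value of 0.12 without DMSO library 3) and TIMP3 at −0.29 (0.651 and 0.00725).

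Summed over the members, protease and inhibitor transcripts moved in different proportions. The summed TPM of the 7 MMP genes divided by that of the 3 TIMP genes was 7.38 ± 0.0626 in ES2 siVRK1 and 21.6 ± 0.679 in ES2 siCtrl, and 5.56 ± 0.249 in ES2 luteolin and 9.71 ± 0.232 in ES2 DMSO (SD, n = 3 each). The libraries were apart in both pairs. In A2780 it was 1.25 ± 0.0631 with siVRK1 and 0.972 ± 0.0116 with siCtrl, and 0.926 ± 0.0460 with luteolin and 1.15 ± 0.129 with DMSO. The libraries were apart in these A2780 pairs as well. Against siCtrl, the ratio with siVRK1 was thus lower in ES2 and higher in A2780. These ratios are shares of transcripts and say nothing of active enzyme. They mostly follow MMP1 and TIMP1 in ES2 and MMP10 and TIMP1 in A2780.

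**Figure D3:**
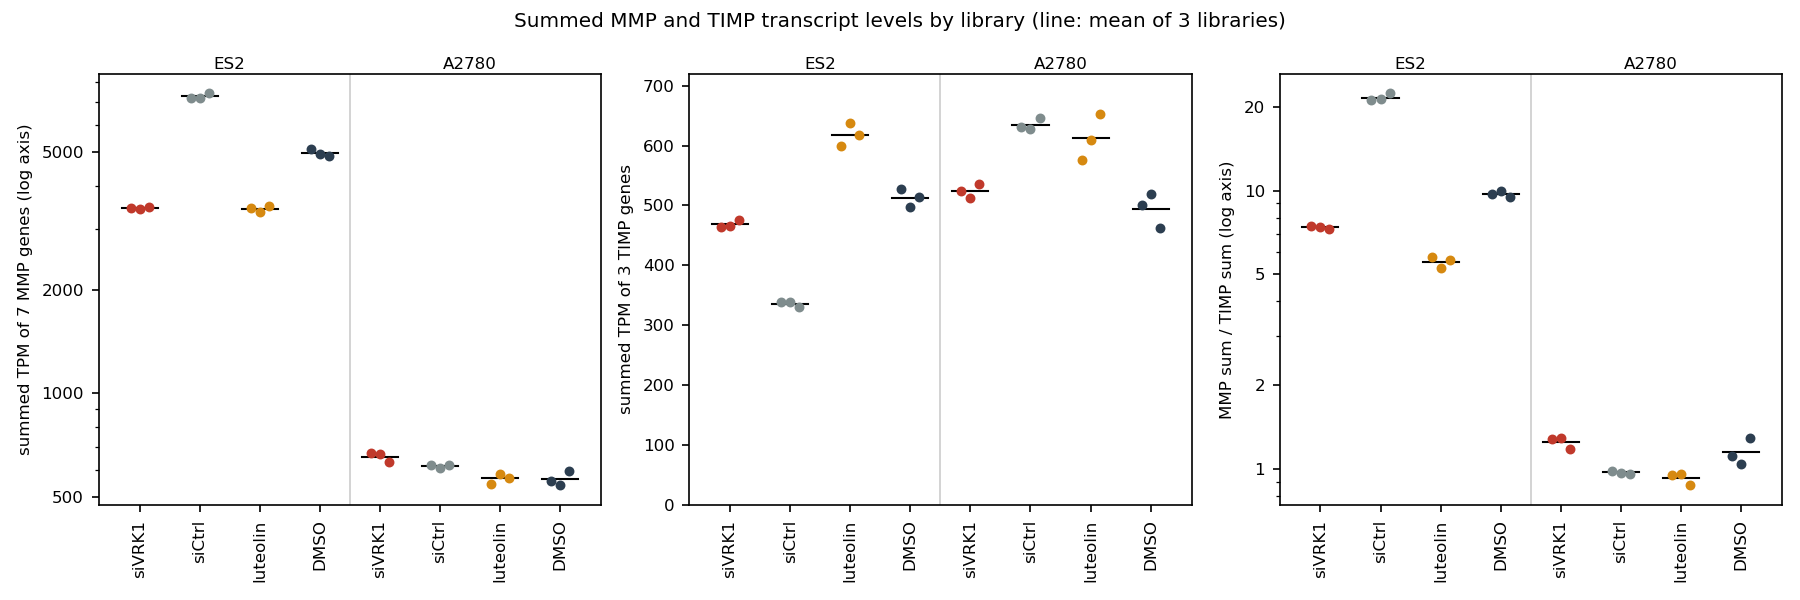
Summed TPM of the 7 MMP genes (log axis), summed TPM of the 3 TIMP genes and their ratio (log axis) in each library; lines are means of 3. The ratio is 5.28 to 22.4 in the ES2 libraries and 0.873 to 1.30 in the A2780 libraries.

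MMP10 has 2 listed transcripts in the table, and they moved unequally in A2780. The long transcript has 1758 bases and the short transcript has 581. The annotation starts exon 4 of the short transcript 33 bases further downstream, inside the coding sequence. The short transcript also ends within exon 4, its last exon, whereas the long transcript has 10 exons. The junctions of exon 3 (lower case) with exon 4 (capitals) show the shift of exon 4, with sequence from GENCODE 29 on the gene's strand.
Long transcript: cttttgcagttaaagAACATGGAGACTTTT
Short transcript: cttttgcagttaaagGACACAGTTTGGCTC
Exon 3 ends at base 102779213 in both, and exon 4 begins at 102778749 in the long transcript and at 102778716 in the short transcript. The short transcript averaged 26.5 ± 11.1 TPM (range 16.6 to 38.5) in siVRK1 and 2.44 ± 0.855 TPM (1.51 to 3.19) in siCtrl. It averaged 15.2 ± 4.39 TPM (10.8 to 19.6) with luteolin and 3.71 ± 3.28 TPM (0 to 6.19) with DMSO. Both pairs were apart, at 4.36% and 0.441% of the MMP10 TPM with siVRK1 and siCtrl and at 2.86% and 0.708% with luteolin and DMSO. The long transcript averaged 582 ± 15.6 TPM in siVRK1 and 551 ± 3.64 TPM in siCtrl. No test was made of single transcripts, which were looked at after the gene values. The exons of the short transcript all lie within those of the long one, and kallisto estimates how reads divide between the 2 transcripts.

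**Figure D4:**
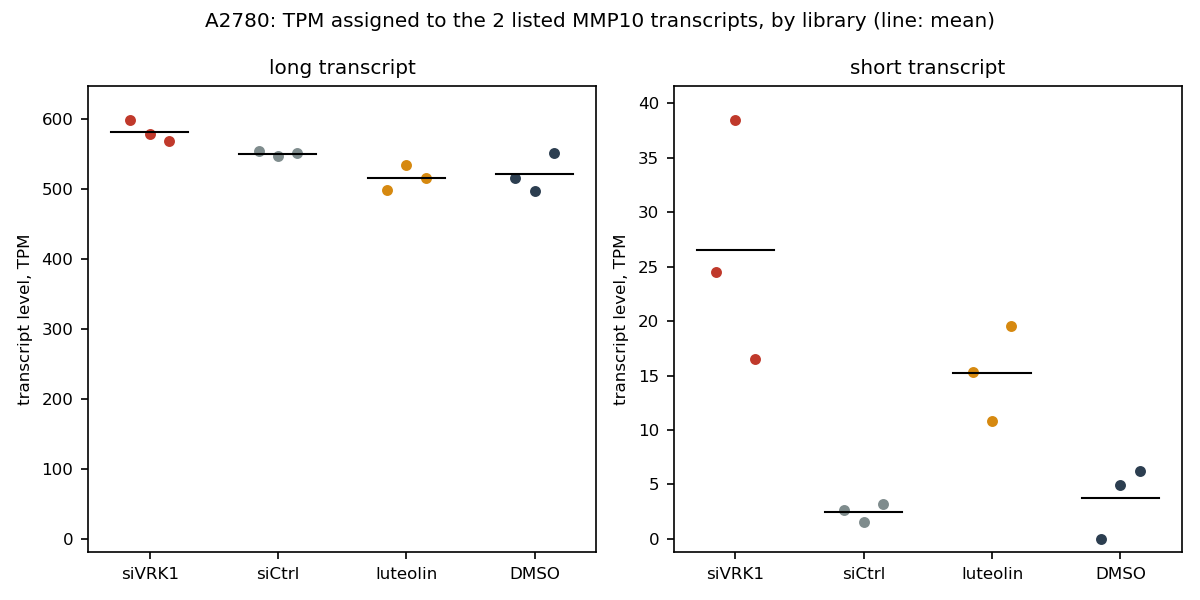
TPM assigned to the long and the short MMP10 transcript in the 12 A2780 libraries, with lines at the mean of 3. The short transcript is at 16.6 to 38.5 TPM in siVRK1 libraries and at 10.8 to 19.6 TPM in luteolin libraries, above every siCtrl and DMSO library.

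Other genes of the pathway were counted from lists, to be read beside the shares of all genes called above. The median log2 fold change of all genes was −0.0022 in ES2 siVRK1, −0.08 in A2780 siVRK1, −0.0033 in ES2 luteolin and 0.22 in A2780 luteolin, and the list medians that follow are as deposited. The plasminogen system, whose product plasmin can activate proMMPs, was followed as a list of 9 genes. In ES2 siVRK1, 9 were tested, 2 were higher and 5 lower, with a median of −0.87. The inhibitor SERPINB2 averaged 239 TPM, against 925 TPM in siCtrl (−1.95, adjusted p = 6.86e-12), the tissue-type activator PLAT averaged 120.1 TPM, against 408 TPM (−1.76, 5.30e-10), and S100A10, which binds plasminogen at the cell surface, averaged 82.9 TPM, against 382 TPM (−2.19, 5.88e-12). SERPINE2, an inhibitor of these proteases, averaged 28.3 TPM, against 8.53 TPM (1.62, 3.48e-08). In ES2 DMSO, SERPINB2 averaged 352 TPM, PLAT 345 TPM, S100A10 154 TPM and SERPINE2 10.3 TPM. The siVRK1 levels of these genes thus lay outside those of the control groups. In A2780 siVRK1, 6 were tested, with 1 higher and 1 lower (median 0.04). With luteolin, 3 were higher and 4 lower of 9 in ES2 (median −0.03). In A2780, 3 were higher and 2 lower of 6 with luteolin (median 0.33), or 3 and 3 with median-of-ratios scaling. PLAU, the urokinase-type activator, averaged 14.4 TPM there, against 5.85 TPM in DMSO (0.92 relative to the median, 0.000480). Of the 9 genes, 9 were higher in ES2 than in A2780 control cells.

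AP-1, ETS and runt-domain factors, regulators of MMP transcription, were listed as 14 genes. In ES2 with luteolin, 8 of 14 tested were higher and 5 lower (median 0.35), with FOS at 32.9 TPM, against 2.23 TPM in DMSO (3.24, adjusted p = 4.57e-06), JUNB at 41.0 TPM, against 8.77 TPM (2.04, 5.40e-06), and RUNX2 at 9.08 TPM, against 22.6 TPM (−1.23, 3.06e-07). In A2780 with luteolin, 9 of 13 tested were higher and 0 lower (median 0.69), or 7 and 3 with median-of-ratios scaling. FOSL1 averaged 36.6 TPM, against 1.82 TPM in DMSO (3.50 relative to the median, 8.63e-10), and FOS 38.1 TPM, against 5.56 TPM (2.34, 4.15e-08). FOSL1 had group means of 544 to 649 TPM in ES2. With siVRK1, 5 were higher and 4 lower of 14 in ES2 (median −0.16), including RUNX2 at 12.6 TPM, against 37.5 TPM in siCtrl (−1.50, 2.88e-08). In A2780 siVRK1, 2 were higher and 6 lower of 13 (median −0.19), including the ETS factor ETV1 at 7.66 TPM, against 21.7 TPM (−1.40, 3.52e-06).

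Of 12 cytokine and growth factor genes known to induce MMPs, 0 were higher and 6 lower of 10 tested in ES2 siVRK1 (median −0.45), led by IL1A at 0.425 TPM, against 4.90 TPM in siCtrl (−2.05, adjusted p = 3.11e-08), and EREG at 4.61 TPM, against 15.2 TPM (−1.53, 2.10e-08). In ES2 DMSO, IL1A averaged 0.142 TPM and EREG 7.78 TPM. The siVRK1 level of IL1A thus lay between those of the control groups, and that of EREG below both. With luteolin in ES2, 5 were higher and 2 lower of 10 (median 0.33), with IL6 at 9.24 TPM, against 2.63 TPM in DMSO (1.40, 0.00285), and IL1B at 27.8 TPM, against 10.03 TPM (1.35, 1.45e-05). In A2780, 1 of 4 tested was higher and 0 lower with siVRK1 (median 0.24), and 3 were higher and 1 lower with luteolin (median 1.24), with the cytokine LIF at 26.2 TPM, against 4.08 TPM in DMSO (2.20 relative to the median, 1.30e-08).

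Among 19 matrix proteins that MMPs cut or bind, 4 were higher and 10 lower of 16 tested in ES2 siVRK1 (median −0.26). Fibronectin (FN1) averaged 151 TPM, against 54.6 TPM in siCtrl (1.45, adjusted p = 1.81e-09), and the basement membrane collagen COL4A1 averaged 10.7 TPM, against 26.5 TPM (−1.23, 1.30e-07). In ES2 DMSO, FN1 averaged 254 TPM and COL4A1 8.55 TPM, so both siVRK1 levels lay between those of the control groups. In A2780 siVRK1, 7 were higher and 1 lower of 13 (median 0.47), led by the basement membrane protein NID1 at 91.5 TPM, against 41.3 TPM (1.13, 2.20e-08). With luteolin in ES2, 1 was higher and 9 lower of 16 (median −0.22), and COL1A1, a substrate of MMP1, averaged 13.0 TPM, against 115 TPM in DMSO (−3.07, 5.47e-09). In A2780 with luteolin, 8 were higher and 2 lower of 13 (median 0.44), or 6 and 4 with median-of-ratios scaling.

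Proteins that activate, dock or clear MMPs were listed as 10 genes. THBS1, which binds proMMP2 and can carry it to uptake by the receptor LRP1, averaged 123 TPM in A2780 siVRK1, against 34.8 TPM in siCtrl (1.80, adjusted p = 2.75e-07), and 72.5 TPM with luteolin, against 8.15 TPM in DMSO (2.79 relative to the median, 7.23e-10). LRP1 averaged 17.8 TPM in A2780 siVRK1, against 9.995 TPM (0.76, 0.000357), and 33.3 TPM with luteolin, against 8.12 TPM (1.69 relative to the median, 4.98e-08). Both genes were thus higher with each treatment in A2780. In A2780, 2 of 7 tested were higher and 1 lower with siVRK1 (median 0.06), and 3 higher and 1 lower with luteolin (median 0.23). In ES2, 2 of 8 were higher and 3 lower with siVRK1 (median −0.22), among them CD44, which docks MMP9 at the cell surface, at 355 TPM, against 486 TPM (−0.45, 1.51e-06), and 2 were higher and 2 lower with luteolin (median −0.06).

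The ADAM and ADAMTS proteases, some of them targets of TIMP3, were listed as 21 genes. In ES2, 2 were higher and 5 lower of 12 tested with siVRK1 (median −0.24), led by ADAMTS1 at 68.4 TPM, against 17.5 TPM in siCtrl (1.91, adjusted p = 6.76e-07), and 3 were higher and 5 lower with luteolin (median −0.18), with the shedding enzyme ADAM17 at 16.1 TPM, against 11.5 TPM (0.45, 0.00266). ADAMTS1 averaged 98.45 TPM in ES2 DMSO, so its siVRK1 level lay between those of the control groups. In A2780, 3 were higher and 6 lower of 13 with siVRK1 (median −0.36), and 9 were higher and 0 lower with luteolin (median 0.60), or 8 and 2 with median-of-ratios scaling. Of 17 further genes of the families, TIMP4 among them, few reached the filter. In A2780, 6 were tested, with 0 higher and 1 lower for siVRK1 (MMP11 at 9.25 TPM, against 14.7 TPM, −0.62, 0.000378) and 1 higher and 2 lower for luteolin. In ES2, 3 were tested, with 0 higher and 1 lower for siVRK1 (MMP17 at 3.45 TPM, against 6.96 TPM, −0.87, 0.00809) and 0 higher and 1 lower for luteolin (MMP16 at 2.33 TPM, against 4.60 TPM, −0.73, 0.0170). The siVRK1 level of MMP17 also lay between those of the control groups, with 2.38 TPM in ES2 DMSO.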

How the data were processed

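RNA of 24 libraries was sequenced by the authors. The deposited values are TPM, listed for each transcript with its gene symbol, and the submitters' processing notes name kallisto, FastQC and hg19. Repeated lines (1958 of 193845) held identical values and were used once. TPM were summed per symbol; 9542 transcripts with no symbol and 19 with more than 1, holding 0.514% to 1.03% of the TPM, were left out. TPM keep no depth, so depth is unknown and no counting interval was given.

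Genes that reached 1 TPM in 3 or more of the fitted libraries were tested on log2(TPM + 1), pseudocount 1, with limma 3.58.1 (limma-trend, two-sided) in R 4.3.3, with p-values adjusted by Benjamini-Hochberg across every tested gene and called under 0.05. Comparisons within a line used its 12 libraries, and comparisons between lines used all 24. Fold changes understate the change of low genes. The fit was tested on simulated data. Values after ± are standard errors unless SD is named. Where median-of-ratios scaling moved the median of all genes by over 0.1, fold changes are relative to that median.

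The members and lists were chosen with earlier results of these data known. From 7 lists of other genes (102 genes), up to 3 genes per direction and comparison with the largest called change could be named, and the text names some. Alternatives were other pseudocounts, filters, scalings, sets of libraries, the replicate number as a block, and each library left out. Coordinates are GRCh38 from GENCODE 29, whose IDs matched all 34 member transcripts; no coordinate came from the table. Replicate numbers were checked as pairs: deviations of same-numbered libraries correlated at −0.0517 to 0.0381.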

Additional observations from a re-analysis of the deposited data

Results flagged for a closer look

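Of 9 members tested for the difference itself, the siVRK1 effect differed between the lines for 5 and the luteolin effect for 6. Across all 14328 genes tested, the shares called were 33.9% and 50.5%, so such calls are common. Differences are given as log2 fold change in ES2 minus that in A2780. For siVRK1 the differences were 2.79 for MMP3, 0.89 for TIMP1, −0.43 for MMP1, −0.93 for TIMP2 and −1.65 for MMP2. MMP3, TIMP1 and TIMP2 were called in opposite directions in the lines. For luteolin, relative to the median of all genes, they were 2.19 for TIMP2, 1.76 for MMP3, 0.88 for MMP15, −0.85 for MMP1, −1.08 for MMP14 and −1.15 for TIMP3. MMP2 in A2780 and MMP15 in ES2 were below 1 TPM, so each of those differences comes from the other line. Groups of 3 are too small for a test of a single library that stands apart.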

How the results depend on the processing

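Depending on the comparison, 33.9% to 83.7% of all genes tested were called. Of 72 member differences tested, 57 were called, and 50 of these kept their call and direction in every alternative run, 7 lost the call in at least 1 and 0 reversed. All 15 that were not called gained a call or turned sign in at least 1. Turns of sign are counted against the values as deposited. Relative to the median, MMP10 (−0.20) and TIMP3 (−0.19) in A2780 luteolin already had the signs of median-of-ratios scaling. So did MMP10 (−0.17) in A2780 siCtrl minus DMSO and TIMP1 (0.11) in the luteolin effect. Values that turned sign with median-of-ratios scaling were −0.24 for MMP10 and −0.21 for TIMP3 (A2780 luteolin), −0.20 for MMP10 (A2780 siCtrl minus DMSO), −0.0036 for TIMP3 (siVRK1 effect) and 0.13 for TIMP1 (luteolin effect). With quantile normalization they were −0.37 for TIMP3 (A2780 luteolin), −0.023 for TIMP3 (siVRK1 effect) and −0.13 for MMP10 (luteolin effect), and with a pseudocount of 0.1, 0.028 for MMP15 (siVRK1 effect). The cause was not tested. With 1 library left out, signs turned for MMP14 in A2780 siVRK1 (−0.31 to 0.13), TIMP3 and MMP10 in A2780 luteolin (−0.033 to 0.066 and −0.012 to 0.063), TIMP3 in ES2 siCtrl minus DMSO (−0.050 to 0.0014) and MMP14 in the siVRK1 effect (−0.37 to 0.077). Every count of genes called stayed within 1.5 times its value. Precision rests on 3 libraries a group, since depth is unknown.

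Same-numbered libraries did not deviate together, and the main fit used no replicate block. This cannot exclude that the numbers mark shared cultures or runs, which the labels do not say. With the replicate number as a block, 5049 genes were called in place of 5318 in A2780 siVRK1 minus siCtrl, and 6786 in place of 6856 in ES2, or 6775 when libraries a and b swapped numbers, an alternative added after the data were seen. Among members the block ended 1 call, MMP14 in A2780 siCtrl minus DMSO (adjusted p = 0.0559).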

Other observations

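Across the 24 libraries, centred within each line, the genes with the level pattern most like that of a member were, by Pearson's r among 11560 genes, FBXO32 for MMP2 (0.98), VOPP1 for TIMP3 (0.95), KITLG for TIMP1 (0.95), DVL2 for MMP3 (0.93), RRAS for TIMP2 (0.93), PON2 for MMP1 (0.92), TXN for MMP14 (0.89), CHST3 for MMP10 (0.88) and RTBDN for MMP15 (0.86). Libraries of a group share their treatment, so 8 group levels underlie each r. In the ES2 groups MMP10 averaged 0.0113 to 0.343 TPM and MMP15 0.132 to 0.341 TPM. In the A2780 groups MMP2 averaged 0.0484 to 0.244 TPM. Each r with these genes, also between members, thus includes levels near 0. Between members, r was −0.85 for MMP2 and TIMP1, −0.78 for MMP1 and MMP15 and 0.75 for MMP15 and TIMP2. Neighbouring genes on chromosome 11 had r of −0.18 for MMP1 and MMP3 and −0.07 for MMP1 and MMP10.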
